A study of Mus musculus with 8 samples.

Results

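Interferon-stimulated genes are the genes that cells switch on when type I interferons (alpha and beta) or type II interferon (gamma) reach them. The set described here held 49 mouse genes with textbook roles in that response, chosen by name with earlier results of these data known. A gene was measured when the array carried a probe annotated to it that was detected (detection p under 0.05) on at least 2 of 8 arrays, and the brightest such probe stood for the gene. Of the 49 genes, 47 had a probe and 42 were measured, among 9803 genes measured in all. Obese, high-fat-fed mice on a C57Bl6 background were fasted for 5 h, and RNA of their frozen adipose tissue was hybridised to 8 Illumina bead arrays. The groups were sgp130Fc transgenic mice (n = 3, 26 weeks old), IL6 knock-out mice (IL6_KO, n = 3, 25 weeks) and wild-type mice (WT, n = 2, 24 weeks). The sgp130Fc protein is a soluble form of the gp130 receptor joined to an antibody Fc part, which binds IL-6 together with its soluble receptor and so blocks IL-6 trans-signalling. The comparisons ask how obese fat differs when trans-signalling alone, or IL-6 as a whole, is missing. The promoter of the transgene, the design of the knock-out, the fat depot and the sex are not given in the sources used here. Age differed with genotype, so the 2 cannot be told apart.

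Type I interferons bind IFNAR1 and IFNAR2, the kinases JAK1 and TYK2 are activated, and a complex that holds STAT2 and IRF9 binds the interferon-stimulated response element. Interferon gamma binds IFNGR1 and IFNGR2 and acts on genes with gamma-activated sites. The induced proteins degrade viral RNA, block its translation, attack vacuoles of intracellular microbes and raise peptide presentation on MHC class I. In obese fat, macrophages, lymphocytes and adipocytes all carry interferon receptors.

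The promoters of 6 members are shown because they carry the letters through which interferon factors are known to act and because they stand for the gene groups whose levels parted most between arrays. Each line gives the 200 bases before the annotated start, 5′ to 3′ on the gene's strand, from RefSeq on GRCm38.p6. Capitals mark each match to GAAA, any 2 bases and GAAA again, the core of the interferon-stimulated response element, on either strand. The first 3 genes encode antiviral proteins: Ifit3 at chr19:34583329-34583528 (plus strand), Rsad2 at chr12:26456453-26456652 (minus strand) and Isg15 at chr4:156200819-156201018 (minus strand). The other 3 encode interferon-induced GTPases: Igtp at chr11:58199356-58199555, Irgm2 at chr11:58214777-58214976 and Gbp2 at chr3:142620463-142620662, all on the plus strand.
Ifit3: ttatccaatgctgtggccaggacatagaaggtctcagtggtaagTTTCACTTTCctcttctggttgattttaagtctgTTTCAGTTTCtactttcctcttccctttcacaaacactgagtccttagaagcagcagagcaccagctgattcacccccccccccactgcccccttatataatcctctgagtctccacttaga
Rsad2: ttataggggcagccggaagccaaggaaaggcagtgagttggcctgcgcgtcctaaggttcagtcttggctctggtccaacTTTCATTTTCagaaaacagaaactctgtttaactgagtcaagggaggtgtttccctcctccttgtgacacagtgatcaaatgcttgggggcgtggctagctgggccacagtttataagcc
Isg15: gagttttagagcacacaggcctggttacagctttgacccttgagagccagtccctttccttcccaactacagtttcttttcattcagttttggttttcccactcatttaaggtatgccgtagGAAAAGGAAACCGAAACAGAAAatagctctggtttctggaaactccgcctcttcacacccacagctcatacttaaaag
Igtp: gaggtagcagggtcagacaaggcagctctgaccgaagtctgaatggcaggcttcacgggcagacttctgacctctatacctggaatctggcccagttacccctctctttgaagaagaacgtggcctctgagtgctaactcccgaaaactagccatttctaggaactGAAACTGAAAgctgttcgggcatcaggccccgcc
Irgm2: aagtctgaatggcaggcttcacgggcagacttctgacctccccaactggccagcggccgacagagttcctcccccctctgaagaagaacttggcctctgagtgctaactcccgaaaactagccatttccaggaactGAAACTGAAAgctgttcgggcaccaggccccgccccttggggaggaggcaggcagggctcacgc
Gbp2: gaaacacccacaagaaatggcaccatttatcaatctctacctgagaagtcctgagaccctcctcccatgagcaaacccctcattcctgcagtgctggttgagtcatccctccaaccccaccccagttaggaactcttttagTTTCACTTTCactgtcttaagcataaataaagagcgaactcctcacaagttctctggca

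Ifit3 carried 2 cores, Isg15 carried 3 overlapping ones and each of the other 4 carried 1. The windows of Igtp and Irgm2, which lie 15221 bases apart on chromosome 11, share a run of 40 bases. Of the 49 members, 38 had a promoter in the RefSeq table (250 bases before to 50 after the start), and 17 of these (44.7%) held the core, against 3.99% of 27025 genes. The gamma-activated site TTCNNNGAA, also searched on both strands, was found in 14 of the 38 members (36.8%) and in 9.55% of all genes. Of 26 core matches in the members, 2 overlapped a gamma-activated site match. These are matches of letters, not shown binding sites.

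Levels are normalized log2 intensities and differences are log2 differences ± SE from limma, adjusted by Benjamini-Hochberg over 14141 probes. A probe passed at an adjusted p under 0.05. Before normalization the arrays had median intensities of 109.1 to 145, and 48.6% to 52.1% of their probes were detected. IL6_KO replicate 2 stood apart: it correlated at 0.944 on average with the other arrays, against 0.964 to 0.973 for the rest. Its adipocyte markers were the lowest, with a summed level of 15.31 against 15.99 to 16.31 on the other arrays. Adipoq, which encodes adiponectin, was detected on all 8 arrays at 12.15 to 13.63. Precision is set by how few arrays each group had: the median SE of a measured member's difference was 0.25 against WT and 0.22 between sgp130Fc and IL6_KO.

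None of the 42 measured interferon-stimulated genes passed in any of the 3 comparisons. The direction of their differences still varied by gene group and by array. In sgp130Fc fat against IL6_KO fat, 30 of 42 had a positive difference, with a median of 0.19 (0.00 over all genes measured). The 12 antiviral effectors had a median difference of 0.38 there, the 5 genes of the ISG15 group 0.51, the 8 GTPases 0.30 and the 5 transcription factors -0.09. Against WT, the median over the 42 was 0.03 in sgp130Fc fat and -0.08 in IL6_KO fat, with 21 and 16 positive differences.

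In sgp130Fc minus IL6_KO, 0 of 42 members passed, where 1.45% of all genes (1.27% of probes) did, and the smallest adjusted p of a member was 0.114 (Oas2). At an unadjusted p under 0.05, 7 members were higher in sgp130Fc fat and 0 lower, against 9.97% and 8.46% of all genes. In sgp130Fc minus WT, 0 of 42 passed beside 0.112% of all genes (0.0919% of probes), with a smallest adjusted p of 0.416 (Oas2). There, 7 members were higher and 0 lower at an unadjusted p under 0.05, against 4.53% and 4.03% of all genes. In IL6_KO minus WT, 0 of 42 passed beside 0.296% of all genes (0.248% of probes), with a smallest adjusted p of 0.109 (Trim25). Here 2 were higher and 2 lower at an unadjusted p under 0.05, against 9.93% and 11.4% of all genes. Among the lower ones, Iigp1 was detected on the WT arrays alone and so had to differ. Both comparisons with WT use the same 2 WT arrays.

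**Figure D1:**
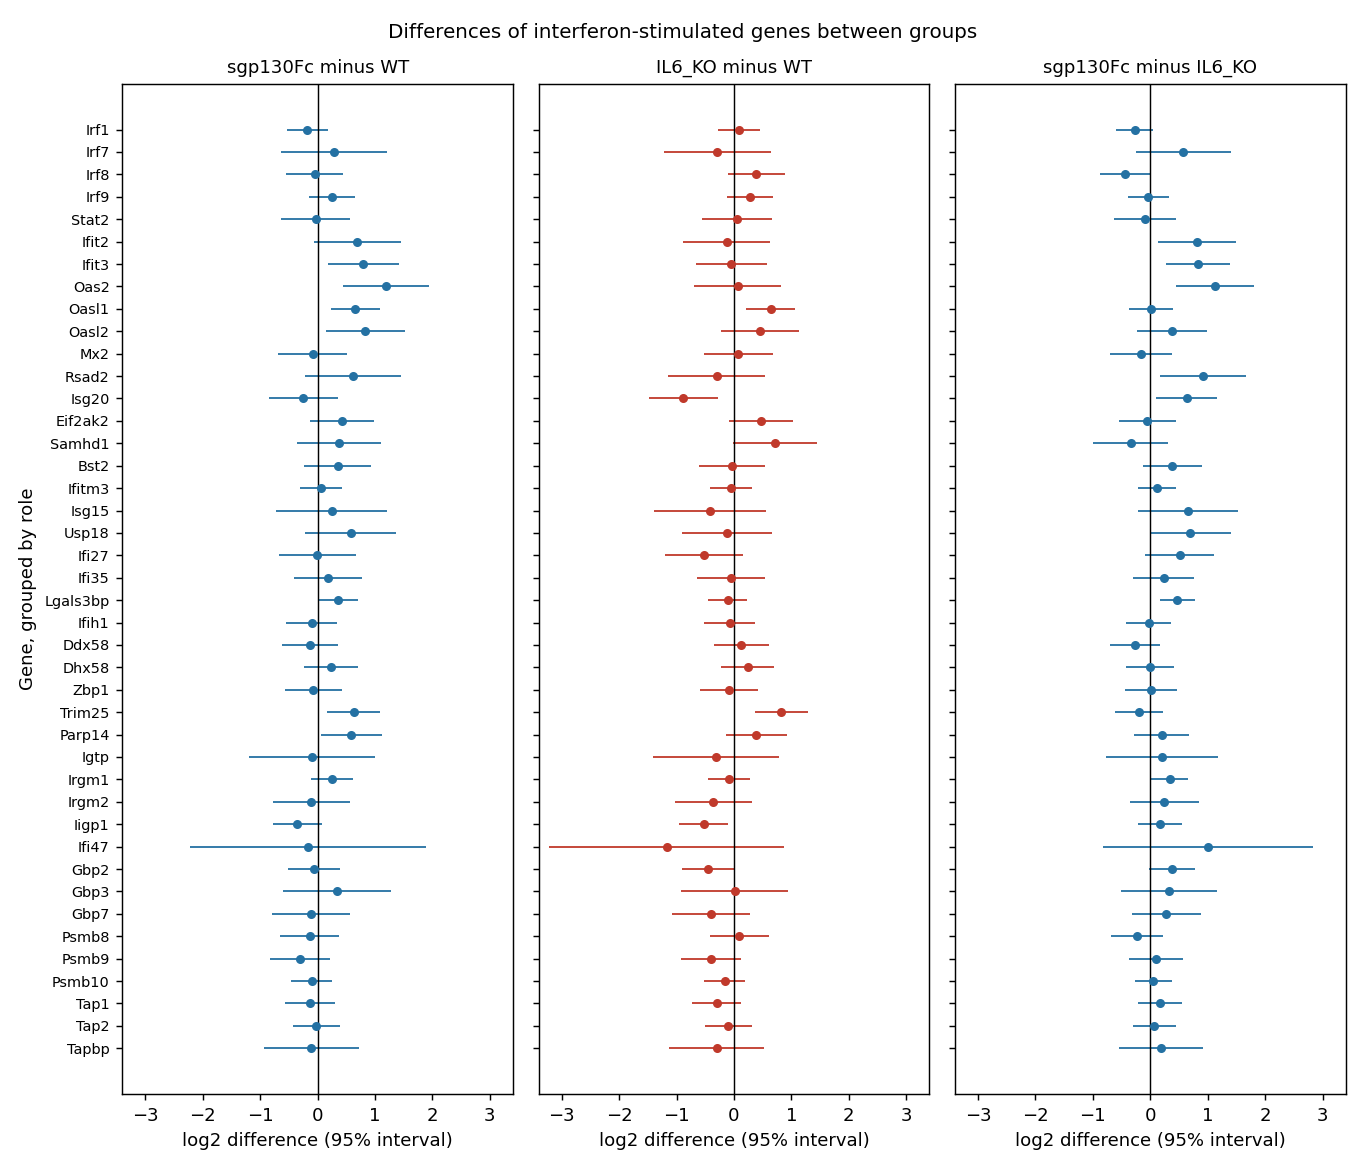
Log2 difference (x axis) of each of the 42 measured genes (y axis, grouped by role) in 3 comparisons, with 95% intervals from the limma fit on 8 arrays. Oas2, Rsad2, Ifit3 and Ifit2 lie between 0.82 and 1.13 in sgp130Fc minus IL6_KO, and Ifi47 has the widest interval in each panel.

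Counted by whether the arrays of both groups overlap, 10 members lay wholly higher and 1 wholly lower in sgp130Fc than in IL6_KO fat. All genes gave 14% and 13%, so the 10 of 42 is above that share and the 1 of 42 below it. The 10 were Ifit2, Ifit3, Oas2, Rsad2, Isg20, Usp18, Lgals3bp, Parp14, Irgm1 and Gbp2, and the 1 was Irf1. These counts use the brightest probe of each gene. Ifit3, Irgm1, Gbp2 and Irf1 each had a dimmer measured probe on which sgp130Fc and IL6_KO overlapped. Against WT, 9 members lay wholly higher and 2 wholly lower in sgp130Fc fat (13.8% and 15.8% of all genes), and 5 and 5 in IL6_KO fat (18.9% and 21.2% of all genes). Iigp1 is counted among the wholly lower members in both comparisons with WT.

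Much of the variation lay within groups. sgp130Fc replicate 2 was the highest of the 8 arrays for 16 of the 42 members (38.1%), against 7.21% of all genes, and for 8 of the 12 antiviral effectors. WT replicate 1 was the highest for 12 members (28.6%, all genes 16.2%), among them 7 of the 8 GTPases. WT replicate 2 was the lowest for 12 members (28.6%, all genes 16.8%), among them 8 of the 12 antiviral effectors. The antiviral genes and the GTPases thus had their highest levels on different arrays of different genotypes. Of the 16 members highest on sgp130Fc replicate 2, 11 had a promoter and 6 of these held the response element core shown above. Of the 12 highest on WT replicate 1, 9 had a promoter and 6 held it.

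**Figure D2:**
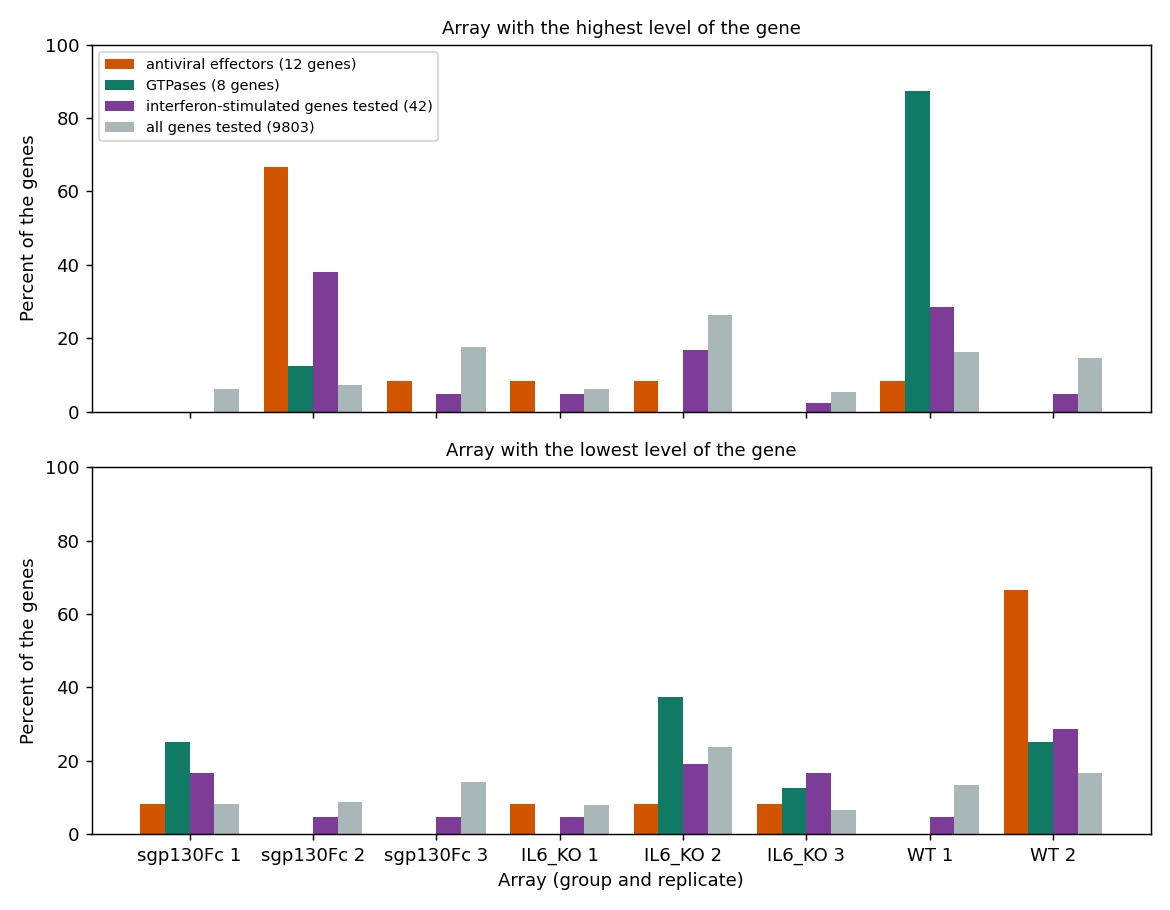
Percent of genes (y axis) for which each array (x axis) had the highest level (top) or the lowest level (bottom), for antiviral effectors, GTPases, the 42 measured interferon-stimulated genes and all 9803 genes. sgp130Fc replicate 2 is highest for 66.7% of the antiviral effectors and WT replicate 1 for 87.5% of the GTPases.

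The 2 WT arrays differed from each other more in these genes than in others. WT replicate 1 was above WT replicate 2 in 33 of 42 members (78.6%), against 52.2% of all genes. The median of replicate 1 minus replicate 2 was 0.36 over the members and 0.02 over all genes, and 7 members (16.7%) differed by more than 1 in size, against 3.56% of all genes. Gbp3 differed most, by 1.70. The WT mean therefore depends on the array: without WT replicate 1 the members' median in IL6_KO minus WT was 0.15, and without WT replicate 2 it was -0.22. In sgp130Fc minus WT these medians were 0.26 and -0.036. The comparison of sgp130Fc with IL6_KO uses no WT level.

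**Figure D3:**
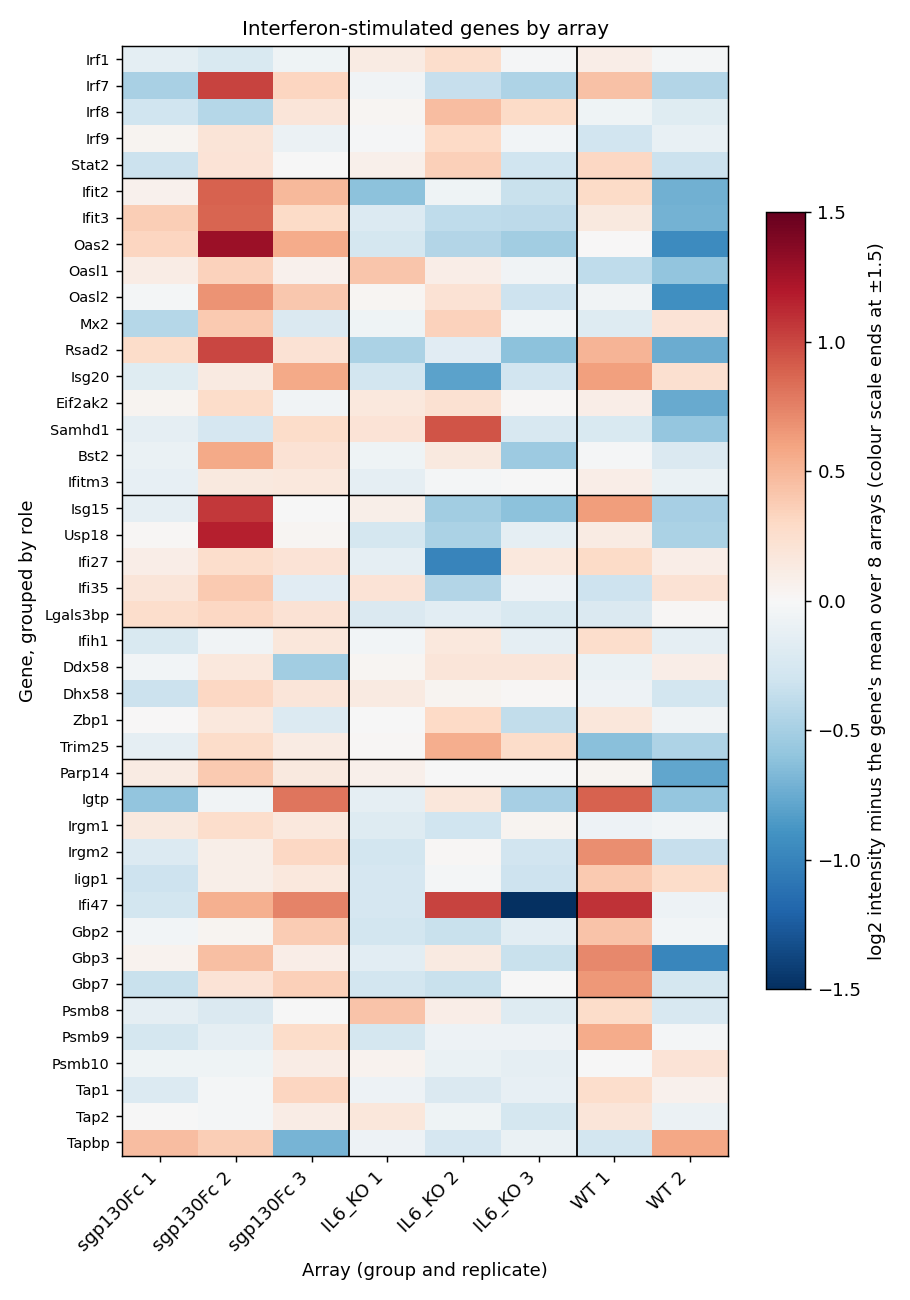
Level of each measured gene (rows, grouped by role) on each array (columns) as log2 intensity minus the gene's mean over 8 arrays, red above and blue below the mean. The antiviral rows are reddest in sgp130Fc replicate 2 and bluest in WT replicate 2, and the GTPase rows are reddest in WT replicate 1; Ifi47 in IL6_KO replicate 3 runs past the colour scale.

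Among the transcription factors, no member passed, and the differences between sgp130Fc and IL6_KO fat ran from -0.44 (Irf8) to 0.58 (Irf7). Irf1, an early transcription factor induced through gamma-activated sites, had levels of 10.40, 10.33 and 10.49 on the sgp130Fc arrays, 10.68, 10.82 and 10.53 on the IL6_KO arrays, and 10.65 and 10.52 on the WT arrays. All sgp130Fc arrays lay below all others on this probe, with differences of -0.27 ± 0.14 from IL6_KO (adjusted p = 0.355) and -0.18 ± 0.16 from WT (adjusted p = 0.807). The dimmer Irf1 probes each gave -0.17 for sgp130Fc minus WT, with overlap. For sgp130Fc minus IL6_KO they gave -0.18, -0.50 and -0.47, with overlap on the probe at -0.50. Irf8, a factor of macrophages and dendritic cells, had 8.76, 8.63 and 9.24 in sgp130Fc, 9.09, 9.52 and 9.34 in IL6_KO, and 8.99 and 8.87 in WT fat. The IL6_KO arrays were above both WT arrays and overlapped those of sgp130Fc, and the difference of sgp130Fc from IL6_KO was -0.44 ± 0.20 (adjusted p = 0.284).

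Irf7, which amplifies type I interferon production, was detected on 7 of 8 arrays, at 5.01, 6.51 and 5.82 in sgp130Fc, 5.44, 5.15 and 5.03 in IL6_KO, and 5.94 and 5.06 in WT fat. The groups overlapped, and sgp130Fc minus IL6_KO was 0.58 ± 0.37 (adjusted p = 0.442), or 0.21 without sgp130Fc replicate 2, the highest array. Stat2 and Irf9 encode parts of the complex that binds the response element. Stat2 had 6.53, 7.06 and 6.85 in sgp130Fc, 6.93, 7.22 and 6.56 in IL6_KO, and 7.16 and 6.54 in WT fat, with full overlap. Irf9 had 8.51, 8.66 and 8.39 in sgp130Fc, 8.45, 8.77 and 8.43 in IL6_KO, and 8.18 and 8.36 in WT fat. Both modified genotypes lay above WT in this Irf9 probe, by 0.25 ± 0.18 in sgp130Fc and 0.28 ± 0.18 in IL6_KO fat (adjusted p = 0.761 and 0.398). A dimmer Irf9 probe, detected on 7 arrays, gave 0.22 ± 0.39 and 0.13 ± 0.39, with overlap in both.

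Of the 15 antiviral effectors on the list, 12 were measured, and 9 of these had a positive difference in sgp130Fc minus IL6_KO. Oas2 makes the 2′-5′ oligoadenylates that switch on RNase L. It had 7.13, 8.09 and 7.37 in sgp130Fc, 6.55, 6.37 and 6.29 in IL6_KO, and 6.82 and 5.87 in WT fat. Every sgp130Fc array lay above every other array. The difference was 1.13 ± 0.30 from IL6_KO (2.18-fold, adjusted p = 0.114) and 1.19 ± 0.33 from WT (2.28-fold, adjusted p = 0.416), while IL6_KO minus WT was 0.06 ± 0.33. Without sgp130Fc replicate 2 the difference from IL6_KO was 0.85. The difference from WT was 1.67 without WT replicate 1 and 0.71 without WT replicate 2.

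Ifit3 and Ifit2 bind viral RNA and limit its translation. Ifit3 had 9.47, 9.97 and 9.38 in sgp130Fc, 8.89, 8.72 and 8.70 in IL6_KO, and 9.25 and 8.38 in WT fat. The sgp130Fc arrays again lay above all others. Ifit3 differed by 0.83 ± 0.24 between sgp130Fc and IL6_KO (1.78-fold, adjusted p = 0.140) and by 0.79 ± 0.27 between sgp130Fc and WT (adjusted p = 0.494). Without WT replicate 1 the difference from WT was 1.22, and without WT replicate 2 it was 0.36. Its 2 dimmer probes gave 1.03 and 1.06 for sgp130Fc minus WT, and 0.75 and 0.69 for sgp130Fc minus IL6_KO. On both of them the sgp130Fc arrays overlapped those of IL6_KO, and on the second they also overlapped WT. Ifit2 had 7.11, 7.93 and 7.53 in sgp130Fc, 6.44, 6.98 and 6.71 in IL6_KO, and 7.34 and 6.33 in WT fat. It parted sgp130Fc from IL6_KO without overlap (0.82 ± 0.30, adjusted p = 0.206) but overlapped with WT (0.69 ± 0.33, adjusted p = 0.649). Without WT replicate 1 the difference from WT was 1.196, and without WT replicate 2 it was 0.19.

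Rsad2 encodes viperin, which makes a chain-terminating nucleotide. Its levels were 8.86, 9.58 and 8.80 in sgp130Fc, 8.11, 8.41 and 7.97 in IL6_KO, and 9.09 and 7.83 in WT fat. All sgp130Fc arrays lay above all IL6_KO arrays (0.91 ± 0.33, 1.89-fold, adjusted p = 0.202), while WT replicate 1 lay within the sgp130Fc range and WT replicate 2 below it (0.61 ± 0.37, adjusted p = 0.716). Rsad2 had the largest gap of the antiviral genes between the WT arrays, 1.26, so that sgp130Fc minus WT was 1.24 without WT replicate 1 and -0.02 without WT replicate 2.

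Oasl1 and Oasl2 are relatives of the oligoadenylate synthetases. Oasl1 had 6.24, 6.47 and 6.20 in sgp130Fc, 6.54, 6.23 and 6.08 in IL6_KO, and 5.75 and 5.54 in WT fat. Both modified genotypes lay above WT without overlap, by 0.66 ± 0.19 in sgp130Fc (adjusted p = 0.426) and 0.64 ± 0.19 in IL6_KO fat (adjusted p = 0.134), and they differed from each other by 0.02 ± 0.17. A second, dimmer Oasl1 probe, detected on all 8 arrays, did not show this: it gave 0.16 ± 0.20 in sgp130Fc and 0.00 ± 0.20 in IL6_KO minus WT, with overlap in both. Oasl2 had 9.09, 9.79 and 9.52 in sgp130Fc, 9.14, 9.33 and 8.80 in IL6_KO, and 9.06 and 8.20 in WT fat. The sgp130Fc arrays were above both WT arrays (0.83 ± 0.30, adjusted p = 0.518), the first of them by little, and IL6_KO overlapped both groups. The difference from WT was 1.26 without WT replicate 1 and 0.40 without WT replicate 2. A dimmer Oasl2 probe, detected on 7 arrays, gave 0.54 ± 0.26 for sgp130Fc minus WT, with overlap.

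Isg20, a 3′ to 5′ exonuclease for RNA, followed another pattern, with its lowest levels in IL6_KO fat. It had 5.72, 6.03 and 6.47 in sgp130Fc, 5.62, 5.10 and 5.61 in IL6_KO, and 6.51 and 6.14 in WT fat, and was detected on 7 of 8 arrays. The IL6_KO arrays lay below all others, at -0.88 ± 0.26 against WT (1.84-fold lower, adjusted p = 0.135). sgp130Fc minus IL6_KO was 0.63 ± 0.24 (adjusted p = 0.211), and sgp130Fc minus WT was -0.25 ± 0.26.

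Samhd1, which breaks down deoxynucleotides, had 9.62, 9.51 and 10.03 in sgp130Fc, 9.96, 10.70 and 9.52 in IL6_KO, and 9.52 and 9.18 in WT fat. Its highest value was that of IL6_KO replicate 2, and IL6_KO minus WT was 0.71 ± 0.32 (adjusted p = 0.254) with that array and 0.39 without it. A dimmer Samhd1 probe, detected on 8 arrays, gave 0.79 ± 0.29 (adjusted p = 0.187). On that probe all IL6_KO arrays lay above both WT arrays, and IL6_KO replicate 2 was again the highest. Eif2ak2, the kinase PKR that halts translation on double-stranded RNA, had 8.72, 8.94 and 8.62 in sgp130Fc, 8.83, 8.90 and 8.69 in IL6_KO, and 8.77 and 7.91 in WT fat. WT replicate 2 alone lay low in Eif2ak2, and IL6_KO minus WT was 0.47 ± 0.25 (adjusted p = 0.316), 0.90 without WT replicate 1 and 0.036 without WT replicate 2. Bst2, the tetherin that holds budding virus, Ifitm3, which blocks virus entry at endosomes, and Mx2, a dynamin-like GTPase detected on 5 arrays, overlapped in all comparisons, with differences of -0.16 to 0.38.

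**Figure D4:**
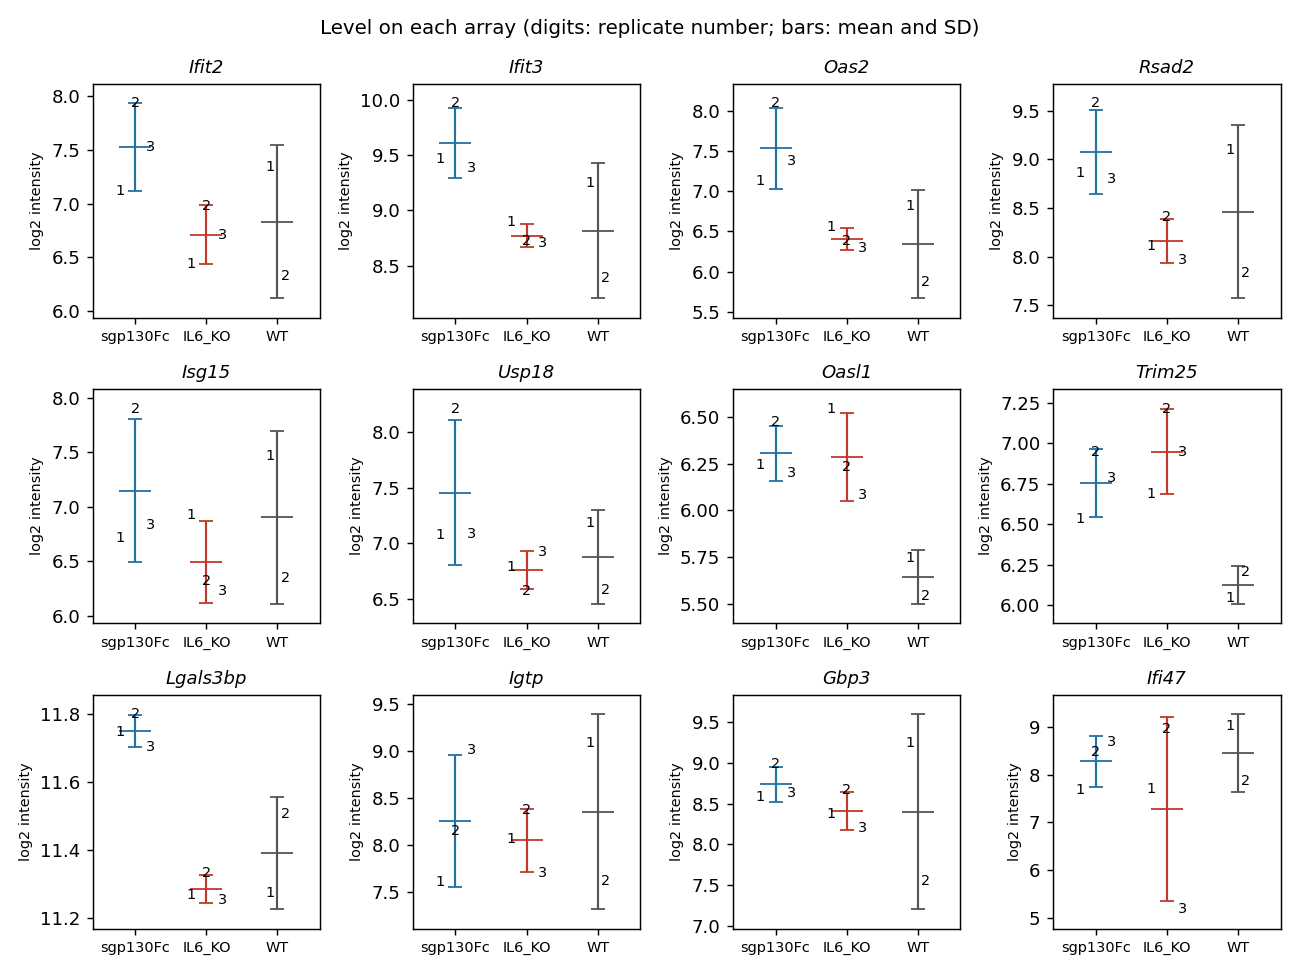
Normalized log2 intensity (y axis, not starting at 0) of 12 interferon-stimulated genes by group (x axis), with digits giving the replicate number and bars the mean and SD. In Oas2, the brightest Ifit3 probe and Lgals3bp the 3 sgp130Fc arrays lie above all others. In Trim25 and the brightest Oasl1 probe both modified genotypes lie above WT. In Ifi47 IL6_KO replicate 3 lies at 5.18, with the other arrays at 7.67 or more.

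In the group of ISG15 and other induced proteins, all 5 measured members had positive differences in sgp130Fc minus IL6_KO, but no member passed. In IL6_KO minus WT 5 of 5 had negative ones, a count that depended on the WT arrays. There, Isg15 (0.15) and Usp18 (0.18) turned positive without WT replicate 1. Ifi35 (0.21) and Lgals3bp (0.01) did so without WT replicate 2, and Ifi27 stayed negative in all alternatives. Isg15, a ubiquitin-like protein attached to other proteins, had 6.71, 7.90 and 6.83 in sgp130Fc, 6.92, 6.31 and 6.23 in IL6_KO, and 7.47 and 6.34 in WT fat. The groups overlapped, and sgp130Fc minus IL6_KO was 0.66 ± 0.38 (adjusted p = 0.404) with sgp130Fc replicate 2 and 0.28 without it. Usp18 removes ISG15 and restrains the type I interferon receptor. It had 7.07, 8.21 and 7.08 in sgp130Fc, 6.79, 6.57 and 6.92 in IL6_KO, and 7.18 and 6.58 in WT fat. Its difference between sgp130Fc and IL6_KO was 0.70 ± 0.31 (adjusted p = 0.286), and 0.32 without sgp130Fc replicate 2. A dimmer Usp18 probe, detected on 8 arrays, gave 0.71 ± 0.23 from IL6_KO (adjusted p = 0.164) and 0.65 ± 0.25 from WT (adjusted p = 0.563). On that probe the sgp130Fc arrays lay above all others, with sgp130Fc replicate 2 the highest.

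Lgals3bp, a secreted galectin-binding glycoprotein, varied little within sgp130Fc and IL6_KO fat. It had 11.75, 11.80 and 11.70 in sgp130Fc, 11.27, 11.33 and 11.25 in IL6_KO, and 11.27 and 11.51 in WT fat. The sgp130Fc arrays lay above all others, by 0.47 ± 0.13 from IL6_KO (1.38-fold, 95% interval 0.16 to 0.77, adjusted p = 0.135) and 0.36 ± 0.15 from WT (adjusted p = 0.585). Without sgp130Fc replicate 2 the difference from IL6_KO was 0.44. Ifi27, a small hydrophobic protein, had 12.94, 13.09 and 13.04 in sgp130Fc, 12.70, 11.84 and 12.997 in IL6_KO, and 13.12 and 12.94 in WT fat. IL6_KO replicate 2 lay apart here, and IL6_KO minus WT was -0.52 ± 0.30 (adjusted p = 0.351) with it and -0.18 without it. A dimmer Ifi27 probe, detected on 8 arrays, gave -0.55 ± 0.27 (adjusted p = 0.275). On that probe all IL6_KO arrays lay below both WT arrays, and IL6_KO replicate 2 was again the lowest.

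The sensors of foreign nucleic acid, Ddx58 (RIG-I), Ifih1 (MDA5), their regulator Dhx58 (LGP2) and Zbp1, showed small differences, of -0.26 to 0.24 over the 3 comparisons. Ddx58 had 6.20, 6.41 and 5.73 in sgp130Fc, 6.28, 6.43 and 6.43 in IL6_KO, and 6.15 and 6.34 in WT fat, and the groups overlapped. Ifih1 was detected on 2 arrays and is known here only near background. Trim25, a ubiquitin ligase known as a partner of RIG-I and itself modified by ISG15, differed more. It had 6.53, 6.95 and 6.79 in sgp130Fc, 6.68, 7.21 and 6.95 in IL6_KO, and 6.04 and 6.21 in WT fat. Both modified genotypes lay above both WT arrays, by 0.63 ± 0.20 in sgp130Fc (1.55-fold, adjusted p = 0.470) and 0.82 ± 0.20 in IL6_KO fat (1.77-fold, adjusted p = 0.109).

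Parp14, a mono-ADP-ribosyltransferase, was the one measured gene of its complex. It had 9.55, 9.83 and 9.58 in sgp130Fc, 9.51, 9.43 and 9.43 in IL6_KO, and 9.48 and 8.65 in WT fat. The sgp130Fc arrays lay above all others and WT replicate 2 well below. sgp130Fc minus WT was 0.59 ± 0.24 (adjusted p = 0.577), 1.00 without WT replicate 1 and 0.18 without WT replicate 2.

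The immunity-related GTPases and guanylate-binding proteins act on the vacuoles of intracellular microbes and are strongly induced by interferon gamma. By their brightest probes, all 8 measured members had positive differences in sgp130Fc minus IL6_KO, of 0.17 to 1.01, and 7 of 8, Iigp1 among them, had negative ones in IL6_KO minus WT, but none passed. Their WT arrays stood far apart, with a median of 0.98 for replicate 1 minus replicate 2. Without WT replicate 1, IL6_KO minus WT turned positive for Igtp (0.43), Irgm2 (0.16) and Gbp7 (0.06). It stayed negative in all alternatives for Irgm1, Iigp1, Ifi47 and Gbp2. Igtp had 7.61, 8.15 and 9.01 in sgp130Fc, 8.07, 8.38 and 7.70 in IL6_KO, and 9.09 and 7.62 in WT fat. The groups overlapped in full, and sgp130Fc replicate 3 and WT replicate 1 were the high arrays. Gbp2 had 10.37, 10.45 and 10.79 in sgp130Fc, 10.14, 10.08 and 10.25 in IL6_KO, and 10.84 and 10.38 in WT fat. The IL6_KO arrays were the lowest in Gbp2, at 0.38 ± 0.18 for sgp130Fc minus IL6_KO (adjusted p = 0.308) and -0.45 ± 0.20 for IL6_KO minus WT (adjusted p = 0.244). A second Gbp2 probe, detected on 3 arrays, went the other way at -0.41 ± 0.22 for sgp130Fc minus IL6_KO, and the mean of both probes gave -0.017.

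Irgm1, which guards the cell's own membranes from the other GTPases of the family, had 13.11, 13.24 and 13.12 in sgp130Fc, 12.77, 12.67 and 13.01 in IL6_KO, and 12.89 and 12.92 in WT fat. All sgp130Fc arrays lay above all others on this probe, by 0.34 ± 0.14 from IL6_KO (adjusted p = 0.265) and 0.25 ± 0.16 from WT. A dimmer Irgm1 probe, detected on 8 arrays, gave 0.15 ± 0.28 and 0.19 ± 0.31, with overlap in both. Ifi47, another GTPase of the family, had 7.67, 8.49 and 8.69 in sgp130Fc, 7.70, 8.96 and 5.18 in IL6_KO, and 9.03 and 7.87 in WT fat. IL6_KO replicate 3 set its difference: IL6_KO minus WT was -1.17 ± 0.91 (adjusted p = 0.493) with that array and -0.12 without it, and sgp130Fc minus IL6_KO was 1.01 ± 0.81 with it and -0.04 without it.

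Iigp1, a GTPase that coats vacuoles, was detected on both WT arrays and no other. It had 4.47, 4.86 and 4.93 in sgp130Fc, 4.53, 4.74 and 4.47 in IL6_KO, and 5.16 and 5.05 in WT fat. WT was the one group in which it was detected, so it entered the set through that group and had to be higher there. It was at least 1.03-fold lower in sgp130Fc and at least 1.06-fold lower in IL6_KO than in WT fat, where the bound comes from the detection limit (adjusted p = 0.687 and 0.174). On their brightest probes, Irgm2, Gbp3 and Gbp7 had differences of -0.40 to 0.33 in the 3 comparisons, with overlap in each. A dimmer Gbp3 probe, detected on 8 arrays, gave 0.71 ± 0.48 for sgp130Fc minus WT and 0.48 ± 0.43 for sgp130Fc minus IL6_KO, also with overlap.

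The immunoproteasome and peptide-loading genes, which cut and carry peptides for MHC class I, differed little, and none of the 6 passed. Psmb8 had 7.32, 7.23 and 7.45 in sgp130Fc, 7.88, 7.56 and 7.26 in IL6_KO, and 7.73 and 7.22 in WT fat. Psmb9 had 8.87, 9.003 and 9.41 in sgp130Fc, 8.87, 9.05 and 9.06 in IL6_KO, and 9.70 and 9.10 in WT fat. Psmb8 overlapped between all groups, and the IL6_KO arrays lay below both WT arrays in Psmb9 (-0.40 ± 0.23, adjusted p = 0.346). Tap1, a subunit of the peptide pump, had 6.35, 6.54 and 6.89 in sgp130Fc, 6.48, 6.34 and 6.44 in IL6_KO, and 6.83 and 6.62 in WT fat. IL6_KO lay below WT by little in Tap1, at -0.30 ± 0.19 (adjusted p = 0.390). Psmb10, Tap2 and the loading chaperone gene Tapbp had differences of -0.30 to 0.19.

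The 7 members without a measured probe were Ifit1, Oas1a, Mx1, Xaf1 and Parp9, whose probes were detected on 0 arrays (levels of 4.37 to 4.95), and Ifi44 and Dtx3l, for which no probe is named. Just inside the detection rule lay Iigp1 and Ifih1, on 2 arrays each, and just outside it no member had a probe detected on 1 array. For the 15 members with several measured probes, the other 18 probes had the sign of the brightest one in 16 cases for sgp130Fc minus IL6_KO, 17 for sgp130Fc minus WT and 14 for IL6_KO minus WT, and none of them passed.

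Genes of the surrounding pathway were read the same way, against the shares of all genes that passed (1.45% in sgp130Fc minus IL6_KO, 0.112% in sgp130Fc minus WT and 0.296% in IL6_KO minus WT). Of 11 interferon genes 2 were measured, Ifna1 and Ifne, near background. Of the interferon receptor and kinase genes 7 were measured and 0 passed. Ifnar2 had 7.69, 7.49 and 7.77 in sgp130Fc, 7.68, 8.03 and 7.68 in IL6_KO, and 7.44 and 7.51 in WT fat. Ifngr1 had 10.86, 10.78 and 10.45 in sgp130Fc, 10.41, 10.51 and 10.43 in IL6_KO, and 10.85 and 10.47 in WT fat. Both receptor chains overlapped between sgp130Fc and the other groups. Ifngr2 had 8.46, 8.65 and 8.65 in sgp130Fc, 8.76, 8.33 and 8.84 in IL6_KO, and 8.85 and 7.83 in WT fat. Of 14 genes of interferon induction 10 were measured and 0 passed, among them Irf3, which starts interferon transcription. Irf3 had 10.55, 10.51 and 10.34 in sgp130Fc, 10.64, 10.56 and 10.43 in IL6_KO, and 10.58 and 10.64 in WT fat, with the largest difference at -0.14 ± 0.15 between sgp130Fc and WT. Other genes of this list had larger differences that did not pass. Tlr7, an endosomal sensor of RNA, had a difference of 1.201 ± 0.29 in sgp130Fc (adjusted p = 0.317) and 0.72 ± 0.29 in IL6_KO minus WT, without overlap in either. Irf5, a factor of inflammatory macrophages, had 0.83 ± 0.18 in IL6_KO minus WT (adjusted p = 0.0894), and Ikbke, a kinase that activates IRF3, had 0.79 ± 0.21 (adjusted p = 0.115), also without overlap.

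Of 10 brakes on interferon signalling 7 were measured, and 1 passed. Socs3, which shuts off gp130 and other cytokine receptors, had 6.70, 7.29 and 6.94 in sgp130Fc, 8.21, 8.32 and 8.56 in IL6_KO, and 7.67 and 8.09 in WT fat. It fell by 1.38 ± 0.20 in sgp130Fc against IL6_KO fat, or 2.61-fold (adjusted p = 0.0174), with no overlap. The call was lost without IL6_KO replicate 1 (adjusted p = 0.0623), sgp130Fc replicate 1 (0.0852) or sgp130Fc replicate 3 (0.0882). The remaining brake genes on the list with a measured probe did not pass.

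Of 57 other interferon-induced genes 36 were measured, and 1 of the 36 fell in each comparison. Cxcl10, a chemokine induced by interferon gamma and also by inflammatory signals, had 4.63, 4.69 and 4.52 in sgp130Fc (not detected), 6.15, 5.71 and 6.00 in IL6_KO, and 5.11 and 5.21 in WT fat. It was at least 1.86-fold lower in sgp130Fc than in IL6_KO fat (adjusted p = 0.00795), a call that was lost without sgp130Fc replicate 3 (adjusted p = 0.0517). Gbp2b, a guanylate-binding protein with near-identical relatives, had 4.42, 4.41 and 5.12 in sgp130Fc, 4.60, 4.55 and 4.68 in IL6_KO, and 10.48 and 8.15 in WT fat. It fell by 4.66 ± 0.55 in sgp130Fc (adjusted p = 0.0221, detected on 1 of 3 arrays) and was at least 19.6-fold lower in IL6_KO (adjusted p = 0.0199) than in WT fat. Gbp2b met the detection rule only through the 2 WT arrays, the group where it was high. A lower level in the other groups was thus favoured by the rule itself. Both calls were lost without IL6_KO replicate 1 or any 1 sgp130Fc array, and over all alternatives the adjusted p reached 0.202 in sgp130Fc and 0.173 in IL6_KO fat. Of 15 genes of MHC class I and its assembly 10 were measured and 0 passed.

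In bulk tissue, fewer cells of a type and less RNA per cell cannot be told apart, so markers of the cells that could carry these transcripts are given beside them. Of 12 macrophage markers 10 were measured, and all 10 had positive differences from WT in both modified genotypes, with 0 passing. Their summed level was 14.68 to 14.99 in sgp130Fc, 14.85 to 15.32 in IL6_KO, and 14.29 to 14.39 in WT fat. Macrophage markers thus lay above WT in both genotypes, as Trim25 did. They were not alone in this. Fibroblast and progenitor markers had a summed level of 14.62 to 14.93 in sgp130Fc, 14.84 to 15.15 in IL6_KO, and 14.60 to 14.61 in WT fat. Of the macrophage markers, Csf1r and Cd68 were not measured. Of 9 T cell markers 5 were measured, with Cd4, Cd8a, Lck and Cd5 not measured. Their summed level was 7.41 to 8.54 in sgp130Fc, 7.94 to 9.31 in IL6_KO, and 9.87 and 8.16 on WT replicates 1 and 2.

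Lymph node markers, 3 of 6 measured, had a summed level of 7.44 to 8.34 in sgp130Fc, 8.09 to 9.50 in IL6_KO, and 11.65 and 10.27 on WT replicates 1 and 2. WT replicate 1, where the GTPases were highest, was thus also the array with the highest T cell and lymph node markers. It was likewise the highest array for NK cell (9.75), classical monocyte (11.44), endothelial (12.87), adipocyte (16.31) and erythroid (14.63) markers. The match was therefore not particular to T cell or lymph node markers. Plasmacytoid dendritic cells are potent makers of type I interferon, and 5 of their 7 markers were measured. Their summed level was 11.40 to 11.75 in sgp130Fc, 11.07 to 11.36 in IL6_KO, and 11.54 and 10.73 on WT replicates 1 and 2. WT replicate 2, lowest for most antiviral genes, was the lowest array for these markers too. This was not particular to them. The same array was lowest for macrophage (14.29), NK cell (8.82), fibroblast and progenitor (14.60) and mesothelial (8.21) markers. Markers of other cell types also differed between sgp130Fc and IL6_KO fat, in both directions. Of 7 measured fibroblast and progenitor markers 1 was positive in sgp130Fc minus IL6_KO (median -0.23, 0 passing). Of 5 measured mesothelial markers 0 were positive there (median -0.47, 0 passing). Adipocyte, endothelial and erythroid markers went in the direction of most members. Of 11 measured adipocyte markers 10 were positive in sgp130Fc minus IL6_KO (median 0.81, 0 passing), with a summed level of 16.15 to 16.29 in sgp130Fc, 15.31 to 16.16 in IL6_KO, and 16.16 to 16.31 in WT fat. All 7 measured endothelial markers were positive there (median 0.77, 1 passing), with a summed level of 12.47 to 12.63 in sgp130Fc, 11.64 to 12.24 in IL6_KO, and 12.57 to 12.87 in WT fat. All 4 measured erythroid markers were positive (median 2.04, 2 passing), with a summed level of 14.45 to 14.60 in sgp130Fc, 12.49 to 13.75 in IL6_KO, and 14.55 to 14.63 in WT fat. IL6_KO fat thus had the lowest endothelial and erythroid levels. The part of any of these cells in the differences above was not tested.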

How the data were processed

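The deposited probe intensity values are linear and, per the file headers, come with a detection p-value on each array; the authors also deposited normalized log2 values. GenomeStudio and limma are named per the submitters' processing notes, without versions. Intensities of all probes were background-corrected and quantile-normalized with neqc of limma 3.58.1 (R 4.3.3, offset 16). The result lay within 0.0548 of the deposited log2 values. Probes detected at p under 0.05 on at least 2 arrays (14141) entered a model of 3 group means on all 8 arrays (lmFit, eBayes, 8.98 degrees of freedom), with two-sided limma tests adjusted by Benjamini-Hochberg over all probes and a threshold of 0.05. Whether the numbered replicates are separate animals is not stated, so the spread behind each p-value may be technical. Same-numbered samples did not deviate together (correlations -0.353 to 0.180), so the numbers were not taken as pairs.

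Probe names came from the array annotation, matched to RefSeq GRCm38.p6 symbols, of which 0 changed. The brightest measured probe stands for a gene. The members and gene lists were chosen with earlier results of these data known. Values on every array are given for members that pass, for the 4 highest and 4 lowest differences of each comparison, for Irf7, Irf9, Stat2, Irf1, Isg15, Ifit1 (not detected), Ifit3, Oasl2, Igtp, Iigp1, Gbp2, Psmb8 and Tap1, and for passing genes of the pathway lists with Ifnar2, Ifngr1, Ifngr2 and Irf3. Ifnar1 and Socs1 had no measured probe, and a further gene of this rule is not reported here. Where a group was not detected on any array, the fold is a bound against the detection limit. Of the genes given beyond this rule, Lgals3bp, Usp18, Parp14, Irgm1 and Adipoq, and the differences of Tlr7, Irf5 and Ikbke, were chosen after their values were seen. The alternatives left out the background correction, took the deposited values, raised the offset to 50 or scaled arrays to their 75th percentile. Others dropped the detection filter or asked for all 8 arrays, let the variance follow intensity, weighted arrays, fitted the compared groups alone, blocked on replicate number, left out each array or averaged a gene's probes. The sex, the depot and the transgene were not analysed here.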

Additional observations from a re-analysis of the deposited data

How the results depend on the processing

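No member passed against WT in any alternative: the smallest adjusted p was 0.0661 in IL6_KO minus WT and 0.182 in sgp130Fc minus WT. In sgp130Fc minus IL6_KO, array weights gave 5 passing members of 42, beside 1730 of all 14141 probes, which is a like share. All 5 were higher in sgp130Fc: Ifit2 (1.05, adjusted p = 0.0288), Ifit3 (0.86, 0.0237), Oas2 (1.14, 0.0265), Rsad2 (1.10, 0.0273) and Lgals3bp (0.50, 0.0163). Without background correction 1 of 42 passed, Lgals3bp (0.45, adjusted p = 0.0409), beside 182 of 14141 probes. All 7 members at an unadjusted p under 0.05 in each comparison of sgp130Fc, and the 4 in IL6_KO minus WT, kept their sign throughout, though without background correction the differences of dim genes shrank (Isg20, -0.30 in place of -0.88). Of 42 members, 27, 20 and 19 kept their sign in all alternatives in sgp130Fc minus IL6_KO, sgp130Fc minus WT and IL6_KO minus WT.

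The count of passing probes moved more. In sgp130Fc minus IL6_KO it was 179, and 107 with no detection filter, 1730 with array weights and 24 to 495 when 1 array was left out, the highest without IL6_KO replicate 3. In sgp130Fc minus WT it was 13, and 8 without background correction, 22 with an offset of 50, 6 with no filter, 5 with detection on all 8 arrays, 20 with the trend, 28 with array weights and 3 to 21 leaving out 1 array. In IL6_KO minus WT it was 35, and 18 without background correction, 9 with no filter, 13 with detection on all 8 arrays, 64 with the trend, 268 with array weights, 5 with the compared groups alone and 6 to 778 leaving out 1 array, the highest again without IL6_KO replicate 3. The cause was not tested. The members' median ran from 0.11 to 0.27, from -0.036 to 0.26 (the highest without WT replicate 1) and from -0.22 to 0.15 in these 3 comparisons when 1 array was left out. With the replicate number as a block, 79, 5 and 12 probes passed, 0 members passed and the medians were 0.19, 0.14 and -0.07. Signal near background limits Iigp1, Ifih1, Mx2 and Irf7.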

Other observations

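Some interferon-induced genes outside the member list, chosen after their values were seen, are given as values. Of the 36 measured genes of their list, 23 had a positive difference in sgp130Fc minus IL6_KO, with a median of 0.08, and those named lie on both sides. Rtp4, a Golgi protein induced by type I interferon, had 5.24, 5.88 and 5.74 in sgp130Fc (detected on 3 of 3 arrays), 5.20, 4.67 and 4.76 in IL6_KO (1 of 3) and 5.19 and 4.76 in WT fat (1 of 2). The sgp130Fc arrays lay above all others, and sgp130Fc minus IL6_KO was 0.74 ± 0.23 (limma, adjusted p = 0.150). Cmpk2, a mitochondrial nucleotide kinase, had 7.53, 7.90 and 7.57 in sgp130Fc, 6.87, 7.20 and 7.21 in IL6_KO, and 7.80 and 7.05 in WT fat. It parted sgp130Fc from IL6_KO without overlap (0.57 ± 0.22, adjusted p = 0.224), with WT replicate 1 within the sgp130Fc range and WT replicate 2 within the IL6_KO range. Cxcl9, a chemokine induced by interferon gamma, had 9.01, 9.21 and 10.14 in sgp130Fc, 9.06, 8.91 and 8.73 in IL6_KO, and 10.34 and 9.26 in WT fat. Its high arrays, sgp130Fc replicate 3 and WT replicate 1, were also the 2 high arrays of Igtp, and IL6_KO minus WT was -0.90 ± 0.38 (adjusted p = 0.228). Ifi30, a lysosomal thiol reductase of antigen processing, had 10.13, 10.14 and 10.06 in sgp130Fc, 11.06, 11.31 and 10.69 in IL6_KO, and 9.71 and 10.05 in WT fat. The IL6_KO arrays lay above all others, with sgp130Fc minus IL6_KO at -0.91 ± 0.19 (adjusted p = 0.0566) and IL6_KO minus WT at 1.14 ± 0.21 (adjusted p = 0.0658). Cd274, which encodes the checkpoint ligand PD-L1, had 8.36, 8.38 and 8.02 in sgp130Fc, 8.89, 8.81 and 8.72 in IL6_KO, and 8.70 and 8.51 in WT fat. The sgp130Fc arrays lay below all others, with sgp130Fc minus IL6_KO at -0.55 ± 0.15 (adjusted p = 0.127).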
